A study of Drosophila melanogaster with 2 samples.

Results

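The 10 genes dac, bab1, bab2, rn, ss, odd, sob, tsh, btd and Sp1 encode transcription factors that divide the legs and other appendages of Drosophila melanogaster into segments, and none of them is a homeobox gene. They were chosen by name from the dm6 annotation, as 10 of 13945 protein-coding genes on the chromosome arms. The binding data are TF ChIP-seq, in which an antibody recovers the DNA bound by a tagged factor. Whole pupae aged 24 hours carried a transgene for a C-terminal GFP fusion of CG34367, a homeodomain protein, and an anti-GFP antibody was used. All samples form 1 group, CG34367-GFP pupae, with 2 libraries labelled as biological replicates 1 and 2. The labels give neither the promoter that drives the transgene nor the number of animals, and in whole animals the tissue in which a site was bound is not resolved. Of the 6270 peaks in the joint list, which the authors thresholded on the irreproducible discovery rate (IDR, a measure of how well peak ranks repeat), 21 had a summit at a transcription start site (TSS) of these genes, inside a gene, within 2000 bp of it, or nearer to its TSS than to that of any other protein-coding gene. The deposited signal of a peak is the authors' score, so it serves here for ranks and description within a list. The sources used here give no read depth, so how precisely each peak was measured is unknown. The control used in peak calling was not analysed here, and no untagged animals are compared.

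A fly leg is patterned along its proximal to distal axis by factors expressed in nested and adjacent domains. In the leg, btd and Sp1 act early in the primordium, tsh marks the proximal domain, dac the intermediate segments, and bab1, bab2, rn and ss the tarsus. Genes of the odd-skipped family, which include odd and sob, act at the joints between segments downstream of Notch. During pupal life the imaginal discs unfold into the adult appendages.

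The sequences at the strongest summit of each gene are shown because the summits close to a TSS and those far from it differed in base composition. Each line gives 101 bases centred on the deposited summit, on the plus strand of dm6, from the RefSeq assembly of Release 6. Capitals mark matches on either strand, overlapping ones included, to the homeodomain core TAATTA, its variant form TAATTG, the forkhead sequence TAAACA, the GATA factor sequence AGATAAG and the GAGA factor sequence GAGAGAG. The weakest odd summit is included for its TAATTA, and ss had no summit to show. The first 4 lines lie within 2000 bp upstream of a TSS and the other 6 farther away.
dac (chr2L:16486409-16486509): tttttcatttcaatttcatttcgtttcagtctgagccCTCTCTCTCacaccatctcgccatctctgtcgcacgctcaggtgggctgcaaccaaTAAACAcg
bab2 (chr3L:1178198-1178298): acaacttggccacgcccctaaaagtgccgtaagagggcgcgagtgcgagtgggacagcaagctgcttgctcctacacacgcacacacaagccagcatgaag
rn (chr3R:7310715-7310815): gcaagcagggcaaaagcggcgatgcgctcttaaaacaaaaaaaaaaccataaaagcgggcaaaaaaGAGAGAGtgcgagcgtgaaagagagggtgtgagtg
btd (chrX:9693962-9694062): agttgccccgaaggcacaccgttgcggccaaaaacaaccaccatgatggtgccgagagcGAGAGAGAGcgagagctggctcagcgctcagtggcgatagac
bab1 (chr3L:1089436-1089536): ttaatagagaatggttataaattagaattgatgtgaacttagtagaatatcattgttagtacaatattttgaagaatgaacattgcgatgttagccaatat
odd, strongest (chr2L:3594149-3594249): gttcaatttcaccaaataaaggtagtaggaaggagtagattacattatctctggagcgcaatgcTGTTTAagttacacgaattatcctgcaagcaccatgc
odd, weakest (chr2L:3594800-3594900): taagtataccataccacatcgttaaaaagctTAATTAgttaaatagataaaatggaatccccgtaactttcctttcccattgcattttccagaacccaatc
sob (chr2L:3582862-3582962): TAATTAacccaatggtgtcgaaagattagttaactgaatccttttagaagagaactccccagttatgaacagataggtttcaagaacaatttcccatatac
tsh (chr2L:21846555-21846655): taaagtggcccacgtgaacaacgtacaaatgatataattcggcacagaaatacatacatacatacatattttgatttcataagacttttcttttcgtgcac
Sp1 (chrX:9738604-9738704): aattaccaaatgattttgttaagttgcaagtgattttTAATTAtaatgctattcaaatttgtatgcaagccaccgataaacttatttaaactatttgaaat

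Of the 21 summits, 17 lay farther than 2000 bp from any protein-coding TSS, as did 2927 of the 6270 joint summits. A joint summit lay within 500 bp of a TSS in 2 of the 10 genes, dac and btd, where 17.4% of all protein-coding genes had one. In the same list 9 of the 10, all but ss, were the nearest gene of at least 1 summit, against 23.1% of all genes. A gene with more bases nearer to its TSS than to any other can be nearest to more summits. Those bases spanned from 15.3 kb (sob) to 71.0 kb (bab1). Per 10 kb of them, sob held 1.96 summits, odd 1.57, dac 1.08, bab1 0.845 and btd 0.470, against 0.469 over the arms. rn held 0.391, tsh 0.389, Sp1 0.237, bab2 0.226 and ss 0. The part of this span in the share was not tested. A summit lay inside the gene or within 2000 bp of it in 6 of the 10 (dac, bab1, bab2, rn, btd and Sp1), against 34.0% of all genes. The same count was made by gene length, whose part in it was not tested. Among the 6 genes of at least 10 kb, 5 had such a summit, where 61.5% of all genes of that length had one. Among the 4 shorter genes, odd, sob, tsh and btd, only btd had one, where the share of all shorter genes was 29.5%. No test was made of these shares, since the genes were chosen with earlier results known and genes are not replicates. By annotation 8 of the summits were in introns of protein-coding genes and 1 in an exon of a non-coding RNA gene, lncRNA:CR43823, upstream of sob. The other 12 were counted as intergenic, which here means outside protein-coding genes and outside any exon. Introns of non-coding genes were not set apart.

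**Figure D1:**
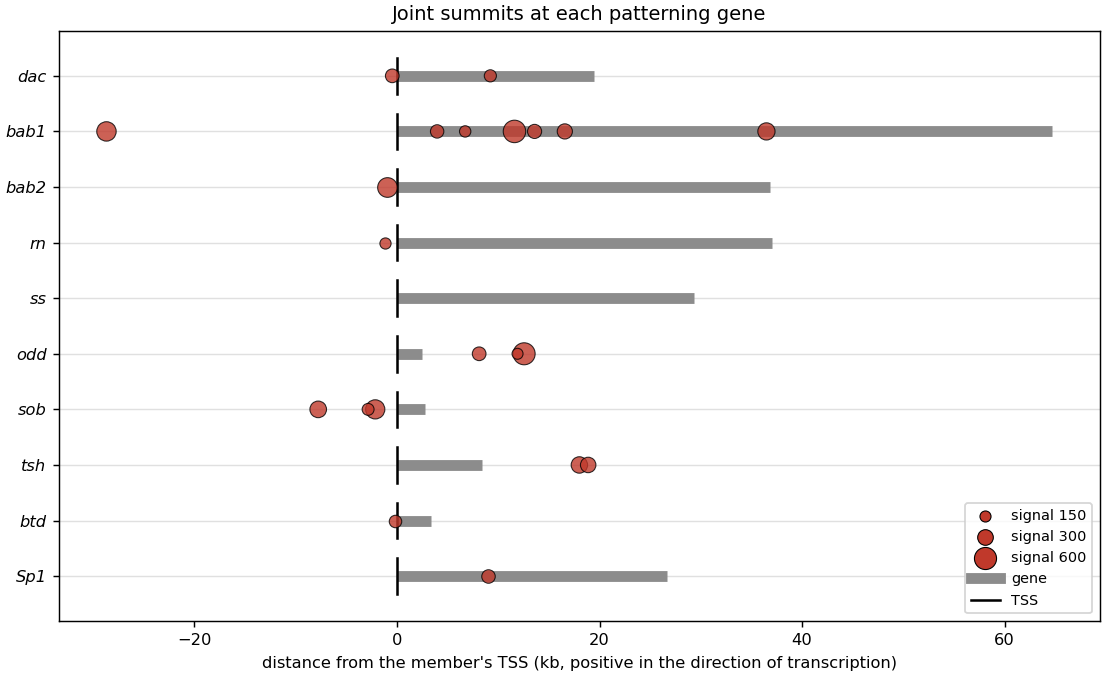
Joint summits at the 10 genes, 1 gene a row, by distance in kb from the nearest TSS of the gene (positive in the direction of transcription). Grey bars span the gene from its outermost TSS (black tick), and circle area gives the deposited signal of the joint peak. bab1 carries 6 summits inside the gene, while the summits of odd, sob and tsh all lie outside the gene and ss has none.

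The genes that act earliest in the leg, btd and Sp1, are neighbours on X and encode zinc finger factors of the Sp family. btd (FBgn0000233, X, 9694186 to 9697558, plus strand) had 1 summit, 174 bp upstream of its TSS, in a peak from 9693822 to 9694201. Its signal was 171 in replicate 1 and 28.5 in replicate 2, at ranks 2026 and 16591 of 30000. This was the peak of the set that differed most between the libraries, with a log2 ratio of replicate 2 to replicate 1 of -2.63 after centring on the median of all shared joint peaks. Sp1 (FBgn0020378, X, 9729648 to 9756369, plus strand) had 1 summit in an intron, 9006 bp downstream of the TSS, in a peak from 9738464 to 9738843. There the signal was 109 in replicate 1 and 109.6 in replicate 2, at ranks 3574 and 3863, so the libraries placed it alike. From the start of btd to the end of Sp1, 62.2 kb held only the Sp1 summit, or 0.161 per 10 kb, against 0.469 per 10 kb over the arms. The 6270 strongest peaks of replicate 1 and of replicate 2, taken singly, also had 1 there.

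tsh, which encodes a zinc finger factor of trunk and proximal appendage identity, had a pair of summits downstream and none in or within 2000 bp of the gene (FBgn0003866, 2L, 21828593 to 21837011, plus strand). They lay 18012 and 18880 bp downstream of the TSS and 868 bp apart. The first, in a peak from 21846510 to 21846647, had a signal of 206 in replicate 1 and 126 in replicate 2. The second, from 21847283 to 21847662, had 199 in replicate 1 and 83.7 in replicate 2, where its rank was 5350 against 1644 in replicate 1. Both stood lower in replicate 2, with centred log2 ratios of -0.75 and -1.29. The bases nearer to the TSS of tsh than to any other span 51.4 kb, and they held 0.389 summits per 10 kb, close to the 0.469 of the arms.

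dac, which encodes a nuclear factor of the Ski and Sno family needed for the intermediate leg segments, had 2 summits (FBgn0005677, 2L, 16466512 to 16485998, minus strand). One lay 461 bp upstream of its TSS, in a peak from 16486269 to 16486648. Its signal was 169.8 in replicate 1 and 76.4 in replicate 2, at ranks 2043 and 5959. The other lay in an intron 9222 bp downstream, in a peak from 16476586 to 16476965, with 109 in replicate 1 and 67.7 in replicate 2. That intronic peak was not among the 6270 strongest of replicate 2, where it ranked 6779.

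Of the 10 genes, bab1 was assigned the most summits. bab1 and bab2 encode BTB domain factors of the tarsus, which also act in abdominal pigmentation and the ovary. bab1 (FBgn0004870, 3L, 1036369 to 1101089, minus strand) had 6 summits, all in intron 1, and was the nearest gene of a further one 28677 bp upstream. Of the intronic summits, 5 lay between 3968 and 16574 bp downstream of the TSS, and the remaining one lay 36478 bp downstream, where the TSS of CG9205 was nearer. The strongest, in a peak from 1089360 to 1089589, was 11603 bp downstream, with 325 in replicate 1 and 283 in replicate 2, at ranks 743 and 1015. It stood above 87.4% of the joint list, and no other summit of the 10 genes had a higher joint signal (619). The upstream peak, from 1129649 to 1129860, had 263 in replicate 1 and 198 in replicate 2. The CG9205-side peak, from 1064490 to 1064669, went the other way, with 126 in replicate 1 and 234 in replicate 2.

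The other intronic peaks of bab1 were weaker, with joint signals from 159 to 283. Taken singly, replicate 1 had 7 and replicate 2 had 6 summits in or near bab1. Long genes often carry several summits: of the 307 genes of at least 50 kb, 94 had 6 or more, and their median was 2. bab1 held 0.873 summits per 10 kb of gene and margins, against 0.469 over the arms, and 116 genes held more summits than bab1.

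bab2 (FBgn0025525, 3L, 1140429 to 1177276, minus strand) differed from its paralogue in having no joint summit inside the gene. It had 1 summit 972 bp upstream of its TSS, in a peak from 1178122 to 1178348. The signal there was 319.9 in replicate 1 and 159 in replicate 2, at ranks 761 and 2382, and the centred log2 ratio was -1.05. Replicate 1 taken singly had 3 summits in or near bab2, and replicate 2 had 1. From bab1 to bab2, 140.9 kb held 7 summits, of which 6 were inside bab1 and 1 was between the genes.

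The other tarsal genes carried little. rn, which encodes a Krüppel-type zinc finger factor, had 1 summit 1136 bp upstream of the outermost of its 3 TSS (FBgn0267337, 3R, 7272617 to 7309629, minus strand). The peak, from 7310575 to 7310954, had 78.8 in replicate 1 and 67.6 in replicate 2, at ranks 5272 and 6784. Its joint signal of 154 stood above 12.4% of the list. The closest joint summits to the inner TSS of rn lay 8532 and 27866 bp away.

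ss, which encodes a bHLH-PAS factor of antennal and tarsal identity, had 0 joint summits by any of these measures (FBgn0003513, 3R, 16374434 to 16403690, minus strand). The closest was 19837 bp from its TSS and nearer to CG31279. Each library taken singly also had 0 among its 6270 strongest peaks. In the pooled list of 30000, the highest peak in ss below the joint threshold ranked 9653, in the gene 8056 bp from the TSS, with 51.3 in replicate 1 and 36.7 in replicate 2.

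The odd-skipped genes showed summits around, not in, the genes. odd (FBgn0002985, 2L, 3604224 to 3606756, minus strand) and sob (FBgn0004892, 2L, 3578013 to 3580769, minus strand) encode related zinc finger factors and are 2.5 and 2.8 kb long. All 6 of their summits lay in the 23.5 kb between them, with 3 nearer to each TSS. The strongest at odd, in a peak from 3594081 to 3594307, lay 12557 bp downstream of its TSS. It had 424 in replicate 1 and 157 in replicate 2, at ranks 464 and 2433, a centred log2 ratio of -1.48. The other odd summits, 11906 and 8117 bp downstream, had 84.4 and 144 in replicate 1 and 70.2 and 84.5 in replicate 2. All 3 were lower in replicate 2.

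The strongest at sob, in a peak from 3582810 to 3583005, lay 2143 bp upstream of its TSS, with 220.4 in replicate 1 and 235 in replicate 2. A second, 704 bp farther upstream, had 101 in replicate 1 and 71.2 in replicate 2. The third, 7773 bp upstream in a peak from 3588449 to 3588595, had 134 in replicate 1 and 206 in replicate 2. The centred log2 ratios of these 3 peaks were 0.05, -0.55 and 0.57, in that order. Thus the libraries placed the first alike, and only the third stood clearly higher in replicate 2, where all those of odd were lower. The bases nearest to the TSS of sob held 1.96 summits per 10 kb and those of odd 1.57, against 0.469 over the arms. drm, of the same family, lies on the other side of sob. The 67.5 kb from drm to odd held 13 summits, 1.93 per 10 kb, with 14 in replicate 1 and 10 in replicate 2 taken singly. Besides the 6 at odd and sob, 2 of these were nearest to drm and 5 to CG43815, a protein-coding gene between drm and sob.

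**Figure D2:**
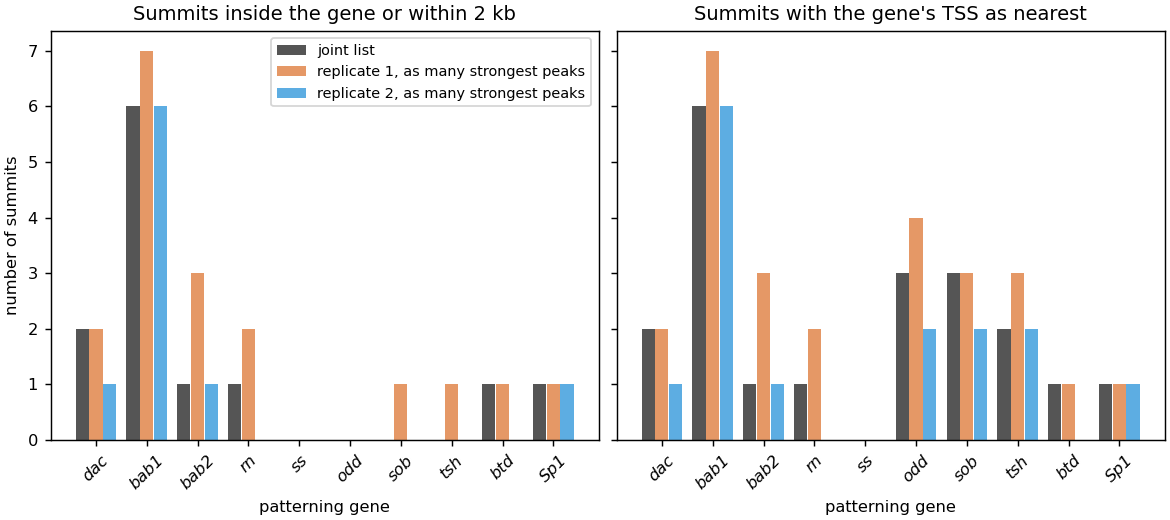
Number of summits at each of the 10 genes (bars, count on the y axis) in the joint list and in the 6270 strongest peaks of replicates 1 and 2, inside the gene or within 2 kb (left) and by nearest TSS (right). bab1 has 6 in the joint list, 7 in replicate 1 and 6 in replicate 2, ss has 0 in all 3, and the bars of rn and btd are absent in replicate 2.

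Signal at the 21 peaks was typical of the joint list, with a median of 244 against 248 for all joint peaks, and 10 of the 21 were among its 3135 strongest. Each of the 21 was overlapped by a peak of replicate 1 and by one of replicate 2 when all 30000 peaks of a library were taken. Among the 6270 strongest of both libraries were 15 of the 21 (71.4%), against 74.7% of all joint peaks. The libraries differed mostly in one direction: 18 of the 21 had a centred log2 ratio below 0, which favours replicate 1, against 2996 of the 5993 shared joint peaks. The median ratio was -0.51, with an SD of 0.73 over the 21 peaks, against 0.72 over all shared peaks. The difference was over 2-fold at 5 of the 21 (23.8%), against 14.8% of all. These were the peaks of btd, odd, tsh, dac and bab2 described above. Base composition is given beside it. The limit of 47.5% GC used here is the lowest among the 4 summits of the 10 genes within 2000 bp of a TSS. Of all joint summits at that distance, 404 reached it, these 4 included. The 375 of the 404 found in both libraries had a median ratio of -0.41, and the 4 had a median of -1.13. The 17 farther summits of the 10 genes had a median GC content of 32.7%, against 30.7% for all farther joint summits. Of these 17, 14 favoured replicate 1, against 1422 of the 2862 farther joint peaks found in both libraries. The part of base composition in this was not tested.

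**Figure D3:**
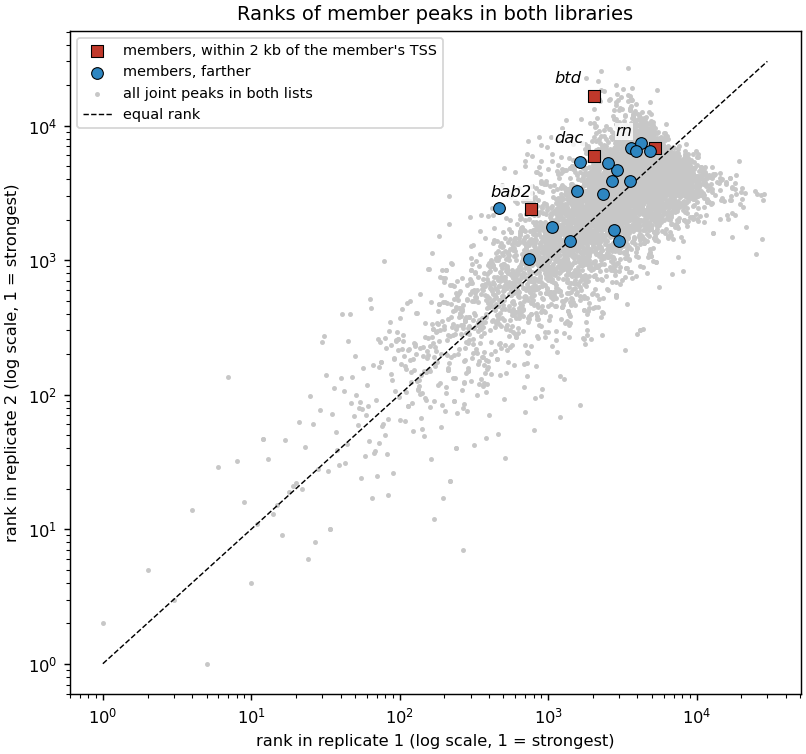
Rank of each peak in replicate 1 (x axis) and in replicate 2 (y axis), both on log scales, for the member peaks within 2 kb of the gene's own TSS (squares), the farther ones (circles) and all joint peaks in both lists (grey). Of the 21 peaks, 18 have a centred ratio in favour of replicate 1. Among the 21, the btd peak stands highest above the line of equal rank, at 2026 in replicate 1 and 16591 in replicate 2.

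Weaker peaks lay at most of the starts that the joint list left empty. In the pooled list, which holds 30000 peaks, 9 of the 10 genes had a peak within 500 bp of a TSS, against 41.4% of all protein-coding genes. Restricting the pooled list to q-values no higher than 0.05 left 8 of the 10, against 30.1%. bab1 was the gene without one, and ss was lost at that q-value, with a pooled rank of 25766. The highest below the joint threshold was at rn, 140 bp from its TSS at pooled rank 6436, with 77.2 in replicate 1 and 54.0 in replicate 2. At tsh a peak 459 bp from the TSS had pooled rank 6651, with 77.9 in replicate 1 and 36.5 in replicate 2. bab2 had one 32 bp from its TSS (rank 7626) and Sp1 one 200 bp away (rank 8199). Those of odd and sob, 230 and 73 bp away, ranked 11344 and 11345. The median of the best ranks was 7626 over the 9 genes and 7794 over all 5772 genes with a pooled TSS peak. The TSS count therefore turned on the list: it was 4 (dac, rn, tsh and btd) in the 6270 strongest of replicate 1 and 1 (dac) in those of replicate 2, where 18.3% and 17.1% of all genes had one.

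The summits close to a TSS were rich in G and C. The 4 summits within 2000 bp of a TSS, at dac, bab2, rn and btd, had GC contents of 47.5%, 58.4%, 47.5% and 60.4% in the 101 bases printed above. All joint summits at that distance had a median of 32.7%, and 12.1% of them reached 47.5%. That limit is the lowest GC content among the 4, so all 4 reach it by construction. The 17 farther summits ranged from 16.8% at sob to 39.6%, with a median of 32.7%. Their mean profile dipped at the summit as that of all farther joint summits did, to 29.1% at the 10 genes and 31.3% in all. The sequence GAGAGAG, which the GAGA factor is known to bind, lay in 3 of the 4 windows near a TSS (dac, rn and btd) and in 0 of the 17 others, where 2.33% and 1.33% of all joint windows of these classes held it. Among the 404 joint windows near a TSS with a GC content of at least 47.5%, these 4 included, 46 (11.4%) held it. The split by distance was made after the data were seen, and a match is not a binding site.

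**Figure D4:**
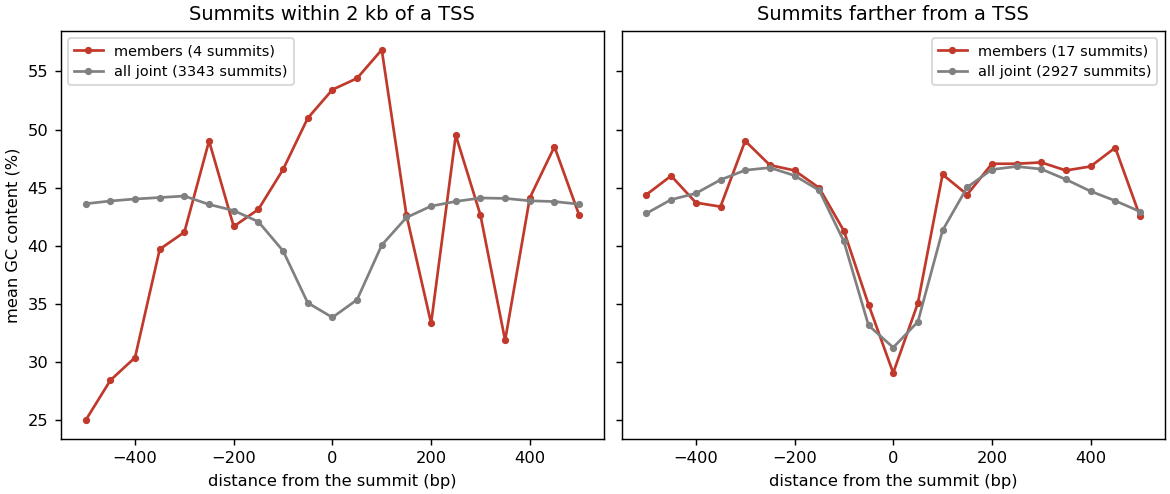
Mean GC content (y axis, %) in 51 bp windows by distance from the summit (x axis, bp), for summits within 2 kb of a TSS (left) and farther (right), at the 10 genes (red) and in the whole joint list (grey). At the summit the 4 near summits average 53.4%, against 33.8% for all near joint summits, while the 17 farther ones dip to 29.1%.

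TAATTA, a core sequence bound by many homeodomain proteins, lay in 4 of the 21 windows, a share of 19.0%, against 9.33% of all joint windows. These were 1 summit of odd, the one of Sp1 and 2 of sob. With windows of 100 bp on either side, it was again in 4 of the 21, against 16.7% of all. TAATTG lay in 1 (the intronic dac summit), against 10.4%. The forkhead sequence TAAACA lay in 3 (dac, bab1 and odd), 14.3% against 14.1%. The GATA sequence AGATAAG lay in 0, which with 21 windows allows a share of up to 14.3%, against 1.61%. None of the 7 summits of bab1 held TAATTA or TAATTG, which says only that these letters are not in the windows.

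Another 45 appendage genes were counted the same way. A joint summit lay within 500 bp of a TSS in 7 (15.6%), where the 10 genes had 2 and all protein-coding genes 17.4%. A summit lay in or within 2000 bp in 23 (51.1%), against 34.0% of all genes, and 31 (68.9%) were the nearest gene of one, against 23.1%. Of the 45, 28 were of at least 10 kb, as were 1977 of all 13945 genes. The nearest-gene share was not compared among genes of like length or spacing. Among the 28 of at least 10 kb, 19 had a summit in or near, where 61.5% of all genes of that length did. The homeobox gene hth, a partner of tsh in the proximal domain, held 13 summits in or near its 132 kb, the most of the list. That was 0.956 per 10 kb of gene and margins, not the highest density, as bowl held 4.26. bowl, the fourth gene of the odd-skipped family, held 7 in or near its 12.4 kb, where odd and sob held 0. The Notch ligand gene Ser, the Notch pathway gene fng, the BMP ligand gene dpp and the T-box gene bi held 5 each.

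Of the 7 genes with a TSS peak, bowl had the strongest (2L, 3771336 to 3771638), at rank 505 with a signal of 777. It was above any TSS peak of the 10 genes. The others, salr, trh, Dll, bi, ci and grn, had joint signals from 286 to 141. In replicate 1 salr had 181, trh 114, Dll 113, bi 160 and grn 88.7, and ci had no matching peak. In replicate 2 salr had 118, trh 143, Dll 82.4, bi 29.9, ci 72.1 and grn 41.2. Dll, the homeobox gene of the distal leg, had its TSS peak at joint rank 4013. The genes ap, B-H1, exd, disco, tio, elB, vg, Poxn, zfh2 and Doc3 had no summit by any measure.

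**Figure D5:**
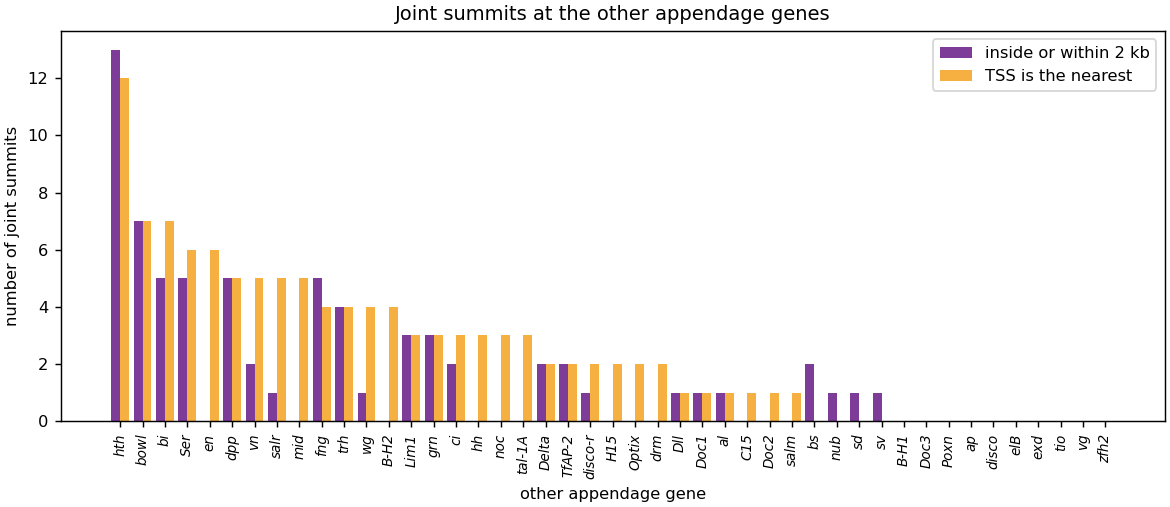
Number of joint summits (y axis) at each of the 45 other appendage genes, inside the gene or within 2 kb (purple) and with its TSS as nearest (yellow). hth stands highest with 13 and 12, and genes such as en have summits by nearest TSS only.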

How the data were processed

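Each library, and the pool of both, has a deposited list of 30000 peaks called against 1 control on dm6, per the labels' file descriptions. From these the authors derived the joint list. The sources used here name no caller. The deposited signal (column 7) is the authors' score per peak. The deposited −log10 q-value is capped, at 1 value for all joint peaks, and was used only at a q-value of 0.05. Ensembl release 115 gave genes and TSS, and no peak ran past an arm of RefSeq Release 6.

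Summits were assigned to protein-coding genes by distance to TSS and gene. A joint peak took the strongest peak of a library overlapping it by at least 1 bp. Log2 ratios were centred on their median over the 5993 joint peaks matched in both libraries. The 45 other genes came from a list of appendage genes (2 matched by older symbols). The 10 genes, the lists and the measures were chosen with earlier results of these data known. The naming rule took all summits of the 10 genes and, of the 45, those with a TSS peak and the 5 with most summits in or near (6 with ties). Other genes were named after their values were seen. No test was made, since there is 1 group. The assignments, matching and sequence search were tested on simulated data. Alternatives were each library alone, stronger or shared peaks and other distances. Python 3.11.15, numpy 2.4.6, pandas 2.3.3 and matplotlib 3.10.9 were used.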

Additional observations from a re-analysis of the deposited data

How the results depend on the processing

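Of the 10 genes, 1 to 4 had a TSS summit when 1 library was left out, against 2 in the joint list. The count was 0 in the 3135 strongest joint peaks (9.80% of all genes), 1 in the joint peaks among the strongest of both libraries (12.7% of all genes) and 1 with a window of 250 bp. Genes with a summit in or within 2000 bp numbered 2 in the 3135 strongest peaks (21.4% of all genes) and 3 for the gene body only, against 6. No share of all genes is given here for the 250 bp window or the gene body only. Narrower limits can only lower that share too, so these 2 counts are not compared with all genes. Genes that were nearest to a summit numbered 5 in the 3135 strongest (14.2% of all genes), against 9. In the whole joint list the shares of all genes were 17.4%, 34.0% and 23.1% for these 3 measures. Summits in or near the genes numbered 4 in the 3135 strongest and 20 by nearest TSS (an alternative added after the data were seen), against 12. With 100 bp on either side, TAATTG lay in 2 of the 21 windows, where 18.2% of all joint windows held it. At the main width it lay in 1, where the share of all was 10.4%. The other appendage genes with a TSS summit numbered 3 in the 3135 strongest and 4 in the peaks shared by the strongest of both libraries, against 7. The shorter lists hold fewer peaks by construction, and for the other changes the cause was not tested. No paired analysis was possible because there is 1 group. Unknown read depth limits what a missing peak shows.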

Other observations

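Strong joint peaks lay near several of the 10 genes but nearer to the TSS of a neighbour. Within 10 kb of the TSS of btd lay 4 such peaks, all nearest to nej, which encodes the CBP acetyltransferase, and the strongest (X, 9687585 to 9687885) had rank 460. Within 10 kb of the TSS of dac lay 2, nearest to Tpr2, the stronger (2L, 16492630 to 16492888) at rank 434 with a signal of 846. Within 50 kb of the TSS of ss, 5 joint summits lay nearest to other genes, the strongest (3R, 16449223 to 16449544) at rank 90 near Pak3. Assignment by nearest TSS gives none of these to the 10 genes.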
